A study of Homo sapiens with 2 samples.

Results

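The EMT transcription factors are the DNA-binding proteins best known for driving the epithelial-to-mesenchymal transition (EMT), and 7 genes were taken: SNAI1, SNAI2, TWIST1, TWIST2, ZEB1, ZEB2 and PRRX1. They were found by gene symbol in the platform's annotation of the array. Of the 7, 6 had a row, each a single row, and the whole array named 16583 genes. TWIST2 had no row under its name and is not analysed here. RNA came from cultures of A375, an established human melanoma cell line. One culture had received an empty lentivirus ("empty vector" below). The other had received a lentiviral short hairpin RNA directed at BMI1 ("shBMI-1"), the gene of a repressive Polycomb chromatin protein. No other genotype or treatment is given in the labels, which also do not say whether either culture was a clone or a pool. Each group had 1 array, so no replicate error, test or p-value could be had, and every ratio below compares these 2 arrays.

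In an EMT, cells lose cell-to-cell junctions and gain motility. Snail proteins (SNAI1, SNAI2) and ZEB proteins (ZEB1, ZEB2) are zinc finger repressors that bind E-box sequences in promoters of epithelial genes such as CDH1, which encodes E-cadherin. Twist proteins are basic helix-loop-helix (bHLH) factors that bind E-boxes as dimers, and PRRX1 is a paired-related homeodomain factor of embryonic mesenchyme. Melanocytes descend from the neural crest, whose migration uses these factors. Differentiated melanocytic cells are described as using SNAI2 and ZEB2, and dedifferentiated melanoma cells ZEB1 and TWIST1. The link to BMI1 is known from carcinoma cells, in which TWIST1 induces BMI1 and acts with it at the CDH1 promoter. The comparison here shows the RNA level of these factors in cells given the hairpin directed at BMI1.

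Values are linear intensities of array rows, and a ratio is the log2 intensity with shBMI-1 minus that with the empty vector. Brightness depends on a row's probes as well as on its RNA, so no factor's level was set against another's. The only spread to be had within genes was that of ratios among different rows of one gene, pooled in bands of brightness and called the row SD. Such rows were read on the same 2 arrays and can differ in probes or transcript. The row SD therefore holds no variation between cultures and is not a replicate error. It ran from 0.80 on the log2 scale at intensities of 32 to 64 to 0.20 above 4096. A row was called dim where it lay under the array median on both arrays (131.2 and 129.8), and other genes are said to be above the brightness limit. Over the 8921 genes above that limit the median ratio was 0.09, and 60% of them had a ratio above 0. As a guide to rows of genes that are usually silent outside the nose, chosen after the values had been seen, 361 olfactory receptor rows had a median intensity of 34.0 for empty vector and 30.0 for shBMI-1, and 90th percentiles of 142 and 135. Of these rows, 21.9% were past 2-fold in one direction or the other.

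BMI1 itself was measured by 1 dim row, at 68.6 with the empty vector against 25.8 in shBMI-1 cells. Its ratio was -1.41 on the log2 scale, with a row SD of 0.80 at its brightness. Both values lay below the 90th percentile of the olfactory receptor rows. With a pseudocount of 50 its ratio was -0.65, short of 2-fold. Of 14 melanocytic genes with a row, only 4 were above the brightness limit. Among these, SOX10, the neural crest and melanocyte regulator, was at 7608 and 6889. S100B, a calcium-binding melanoma marker, was at 1123 and 1452. MITF, TYR and MLANA, defining pigment cell genes, were dim on both arrays.

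No EMT transcription factor reached 2-fold in either direction. The 6 ratios ran from -0.35 for PRRX1 to 0.55 for SNAI2, with 5 above 0, 1 below 0 and a median of 0.08, where 55.2% of all named genes were above 0. All 6 lay within the row SD of their brightness band. As background, 10.9% of all named genes were past 2-fold in either direction (6.78% of those above the brightness limit and 15.6% of those under it), and 27.3% of all named genes were past 1.5-fold. None of the 6 factors was past 1.5-fold, but with 6 genes a count of 0 is near these shares and is no result about the factors as a set. SNAI1, SNAI2, TWIST1 and PRRX1 were above the brightness limit, and ZEB1 and ZEB2 were under it.

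**Figure D1:**
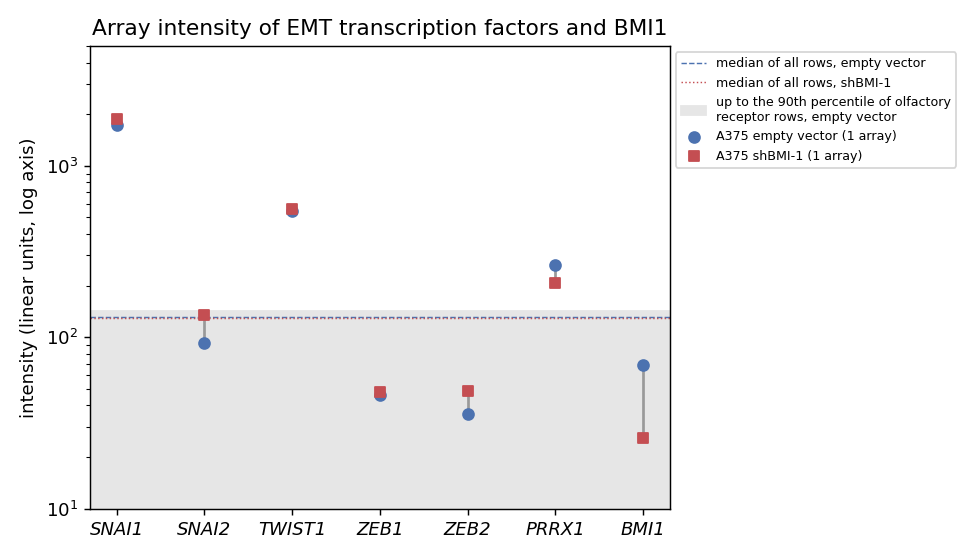
Intensity of the row of each factor and of BMI1 (vertical axis, logarithmic) with the empty vector (circles) and shBMI-1 (squares), 1 array each, with no error bars because there are no replicates. SNAI1, TWIST1 and PRRX1 lie above the shaded range of olfactory receptor rows (up to their 90th percentile of 142 with the empty vector), and SNAI2, ZEB1, ZEB2 and BMI1 lie in it.

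Of the Snail genes, SNAI1, a direct repressor of CDH1, had an intensity of 1731 in empty vector cells and 1869 in shBMI-1 cells. Its ratio was 0.11, a 1.08-fold difference, with a row SD of 0.25 over 119 genes of like brightness that have several rows. This was the brightest of the 6 rows, at the 88.4th percentile of the empty vector array and the 88.5th of the shBMI-1 array. The ratio was also close to the median of the 500 rows nearest in level (0.10), of which 69.0% had a ratio at least as large in size. SNAI1 therefore differed by no more between the arrays than a typical row of its brightness.

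SNAI2, the Snail gene needed for neural crest and melanocyte development, was at 92.5 in empty vector cells and 135 in shBMI-1 cells. Its ratio of 0.55 (1.46-fold) was the largest of the 6, and the row SD at its brightness was 0.76. Of the 500 rows nearest in level, 37.8% had a ratio at least as large in size, and the central 95% of their ratios ran from -1.47 to 1.34. The row crossed the array median only with shBMI-1, and it was brighter than 82.8% of the olfactory receptor rows with the empty vector. With shBMI-1 it was about level with their 90th percentile. The 1.46-fold difference thus lay inside the spread of rows of like brightness, and without replicates its error is unknown. With a pseudocount of 50 the ratio was 0.38.

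TWIST1, the bHLH factor tied to BMI1 in carcinoma cells, was at 544 and 560, nearly equal on the 2 arrays. Its ratio was 0.04 (1.03-fold) with a row SD of 0.30, and 90.6% of the 500 rows nearest in level had a ratio at least as large in size. The sign depended on scaling: the ratio was -0.001 after quantile and -0.03 after loess normalization. Its brightness was at the 74.9th percentile of both arrays, above 99.4% and 99.2% of the olfactory receptor rows on the same arrays.

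Both ZEB genes were dim. ZEB1, a repressor of epithelial genes held in check by microRNAs of the miR-200 family, was at 46.1 and 47.6, a ratio of 0.05. ZEB2, its relative with a role in melanocyte differentiation, was at 35.8 and 48.8, a ratio of 0.44 (1.36-fold). The row SD for both was 0.80, and among genes in their brightness band, 32 to 64, 22.4% were past 2-fold. ZEB1 was brighter than 60.4% and 66.5% of the olfactory receptor rows on these arrays, and ZEB2 than 52.9% and 67.9%. At such intensities neither row could be told from rows of usually silent genes, so whether the RNA was present is unknown. With a pseudocount of 50 the ratio of ZEB2 was 0.20.

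PRRX1 was the 1 factor with a lower value in shBMI-1 cells, at 262 against 206 in empty vector and shBMI-1 cells. Its ratio was -0.35 (1.27-fold lower) with a row SD of 0.60. Of the 500 rows nearest in level, 49.6% had a ratio at least as large in size and 21.8% a lower one. The row was brighter than 96.7% and 95.3% of the olfactory receptor rows. PRRX1 has several transcripts, and its 1 row carries the accession of one of them, so differences between its transcripts were not measured.

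**Figure D2:**
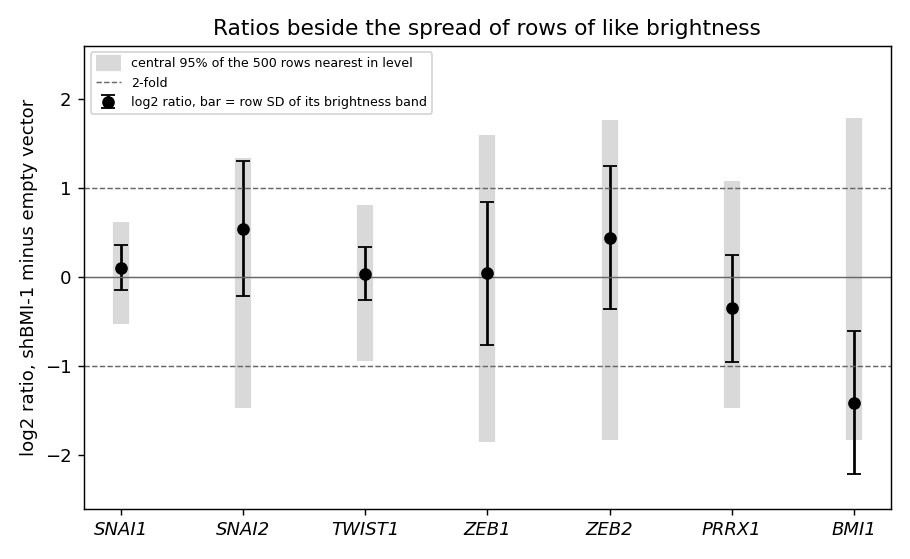
Log2 ratio of each factor and of BMI1 (points, vertical axis, shBMI-1 minus empty vector). Bars show the row SD of the brightness band, which is not a replicate error. Grey columns show the central 95% of ratios among the 500 rows nearest in level. All 6 factors lie inside the grey columns and the bars reach 0, while BMI1, at -1.41, lies past the 2-fold line and inside its grey column.

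The spread of ratios among rows of like brightness differed widely from factor to factor. The central 95% of ratios among the 500 nearest rows was -0.53 to 0.62 for SNAI1 and -0.94 to 0.82 for TWIST1. It was -1.47 to 1.08 for PRRX1, -1.85 to 1.59 for ZEB1 and -1.82 to 1.77 for ZEB2. For SNAI1 and TWIST1 a 2-fold difference would have stood outside the range of like rows. For SNAI2, ZEB1 and ZEB2 a difference of that size would have lain inside it in either direction, as it would for PRRX1.

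**Figure D3:**
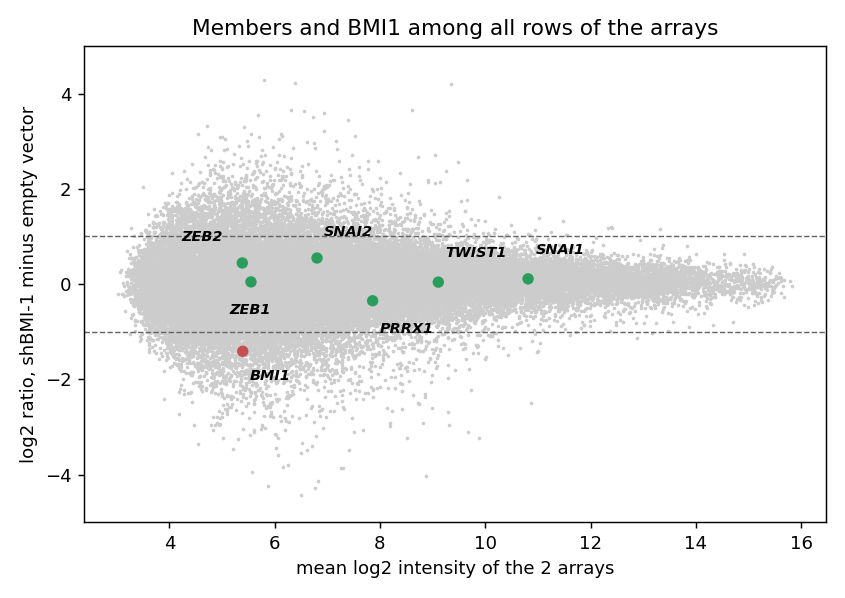
Log2 ratio (vertical axis) against the mean log2 intensity of the arrays (horizontal axis) for all rows (grey), with the factors in green, BMI1 in red and dashed lines at 2-fold. The scatter of ratios is wide at low intensity, where ZEB1, ZEB2 and SNAI2 lie, and narrow at that of SNAI1.

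Genes that work with the factors were described from lists, by counts over genes above the brightness limit. Among relatives by protein family, 8 of 9 had a row and 2 were above the limit, with a median of 0.02: SNAI3, the remaining Snail gene, at 201 and 196 (-0.04), and HAND2, a bHLH factor of limb and heart, at 483 and 510 (0.08). PRRX2, the paralog of PRRX1, was dim, at 23.5 and 66.8, so its ratio of 1.51 (row SD 0.80) rests on values in the range of olfactory receptor rows. Among other transcription factors described as EMT inducers, 5 of 12 with a row were above the limit, 4 of them below 0, with a median of -0.45, which was -0.26 with no brightness limit and -0.21 with one at the 75th percentile. TBX2, a T-box repressor, was at 443 and 283 (-0.64, row SD 0.42). FOXC2, a forkhead factor, was at 2449 and 1705 (-0.52, row SD 0.25). GSC, which encodes goosecoid, had a ratio of -0.45, and TBX3, the relative of TBX2, one of 0.10. None of these 5 reached 2-fold. KLF8, a Krüppel-like repressor, was dim on both arrays, at 104 and 21.2 (-2.29).

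TWIST1 acts with E proteins as dimer partners, and ID proteins bind E proteins and keep them from DNA. Of these 7 genes, 5 were above the limit, 3 above 0 and 2 below, none past 2-fold, with a median of 0.49. Over all 7, with no brightness limit, the median was 0.04. All 3 that were above 0 were ID genes. ID1 was at 947 and 1335 (0.49), with its 2 rows at 0.45 and 0.54 and a row SD of 0.25. ID3 was at 1408 and 2154 (0.61, row SD 0.25), and ID2 at 202 and 317 (0.65, row SD 0.60). The E protein genes TCF12 (-0.48, row SD 0.60) and TCF3 (-0.06) were below 0. ID4 (0.04) and TCF4 (-0.62) were dim.

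Corepressors and chromatin partners of the factors were the best covered list, with 22 of 27 genes above the limit. Of these, 11 were above 0, 11 below, and none past 2-fold, with a median of 0.003. CTBP1, which encodes a corepressor bound by ZEB proteins, was at 2486 and 2246 (-0.15). KDM1A, a histone demethylase gene whose protein is recruited by SNAI1, was at 5356 and 5078 (-0.08). HDAC1, a histone deacetylase gene, was at 2654 and 2763 (0.06, but below 0 after quantile or loess normalization). The largest ratios were those of MTA2 (0.80, row SD 0.60) and RBBP4 (0.65, row SD 0.30), both of the NuRD deacetylase complex, RCOR1 (0.58), and HDAC2 (-0.29).

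The stability of Snail and Twist proteins is set by kinases and ubiquitin ligases, which RNA levels of the factors do not report. The list of protein stability regulators was wider, and also held deubiquitinase genes and others. Of its 20 genes with a row, 12 were above the limit, 9 above 0 and 3 below, none past 2-fold, with a median of 0.08. GSK3B, the kinase that marks SNAI1 for destruction, was at 927 and 933 (0.01, row SD 0.30, but -0.07 after quantile or loess normalization). BTRC, the ubiquitin ligase subunit that reads this mark, was at 86.6 and 157 (0.86, row SD 0.76), and passed the limit only with shBMI-1. CHEK1 (0.80, row SD 0.30), SIAH1 (0.63) and PRKD1 (-0.26) had the next largest ratios among genes above the limit. SIAH1, at 115 and 178, also passed it only with shBMI-1. USP47, a deubiquitinase gene, was dim on both arrays, at 65.7 and 32.6 (-1.01).

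Signals that induce the factors in other systems had 16 of 21 genes above the limit, 10 above 0 and 6 below, with a median of 0.16 (0.07 with no brightness limit, 0.02 with one at the 75th percentile). TGFB3, a TGF-beta ligand gene, was the 1 gene above the limit past 2-fold, at 187 and 90.5. Its ratio was -1.04 (row SD 0.60), or -0.75 with a pseudocount of 50, and it passed the limit only with the empty vector. ETS1, a transcription factor gene, was at 612 and 316 (-0.95, row SD 0.42). SMAD4, the shared mediator of TGF-beta signals, was at 310 and 537 (0.79, row SD 0.42), and YAP1 had a ratio of 0.59. TGFB2, at 120 and 24.8 (-2.27), and JUN, at 39.7 and 8.22 (-2.27), were dim on both arrays.

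Epithelial genes that the factors repress in other systems were mostly dim: 13 of 32 with a row were above the limit, 4 above 0 and 9 below, with a median of -0.05. CDH1 was at 15.3 and 14.1 (-0.11), below the median olfactory receptor row on both arrays. ST14, a membrane protease gene, was the 1 gene above the limit past 2-fold, at 216 and 94.2. Its ratio was -1.20 (row SD 0.60), or -0.88 with a pseudocount of 50, and it passed the limit only with the empty vector. CLDN3 (-0.70) and CLDN4 (-0.34), tight junction genes, were below 0, and JUP, which encodes plakoglobin, was above (0.35 over 2 rows). Among dim genes, OCLN (1.42), ESRP1 (1.48 over 2 rows) and PKP2 (1.28) were above 0 and EPCAM (-1.69) below. Because the rows were at 11.5 to 117, these ratios are not firm.

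Among mesenchymal genes, VIM and CDH2 were close between the arrays, whereas FN1 was higher with shBMI-1. VIM, the intermediate filament gene vimentin, was at 30225 and 30081 (-0.01, but above 0 when each array was centred on its median), and CDH2, which encodes N-cadherin, at 1122 and 1194 (0.09). Of 24 genes with a row, 16 were above the limit, 7 above 0 and 9 below, none past 2-fold, with a median of -0.04. FN1, which encodes fibronectin, was at 272 and 473, a ratio of 0.80 over 2 rows at 0.61 and 0.98 (row SD 0.42). The collagen genes COL5A1 (-0.76, row SD 0.30) and COL6A3 (-0.72, row SD 0.42) were below 0, and COL3A1 was dim (-1.18). TAGLN had a ratio of -0.69 within a row SD of 0.76, and its 2 rows were unlike, at -1.14 and -0.23.

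Among genes of the melanoma states in which these factors are described, the melanocytic list was split and more of the dedifferentiated list was below 0 than above. Of 14 melanocytic genes with a row, 4 were above the limit, 2 above 0 and 2 below, with a median of -0.05 (0.03 with no brightness limit). They were S100B (0.37), SOX10 (-0.14), ERBB3, a neuregulin receptor gene (0.04, but below 0 after quantile or loess normalization), and PAX3. The ratio of PAX3 was -0.25 over 5 rows, which ran from -0.42 to 0.08. Among the dim genes of that list were MITF (32.0 and 72.8, ratio 1.19), PMEL (1.20), TRPM1 (-1.22), TYR (-0.07) and MLANA (0.04). Of 14 genes of the dedifferentiated state, 10 were above the limit, 3 above 0 and 7 below, with a median of -0.42, which was -0.28 with no brightness limit. PDGFRB (-1.82, row SD 0.60) and CD44 (-1.57, row SD 0.30) were past 2-fold. NGFR (-0.86, row SD 0.25) and THBS1 (-0.79, row SD 0.30) were below 0. AXL, a receptor kinase gene of that state, was at 1641 and 1845 (0.17). Across all lists, 16 of 91 dim genes were past 2-fold as deposited, and 2 of them, KLF8 and TGFB2, stayed so with a pseudocount of 50. Above the limit 5 of 108 list genes were past 2-fold, and 3 (CD44, PDGFRB and the leukocyte gene LAPTM5) with that pseudocount. CD44 was above the array median on both arrays (1373 and 462). TGFB3, ST14, PDGFRB (427 and 121) and LAPTM5 (152 and 19.3) passed the limit only with the empty vector, where they were higher. Short of 2-fold, the same held for CLDN3, TAGLN and TYROBP. BTRC, SIAH1, EGR1 (upstream signals) and WNT5A (dedifferentiated genes) passed it only with shBMI-1, where they were higher. The place of all these genes above the limit, and in the counts above and below 0, thus depends on the same difference that is counted. No list was tested, and the counts of genes past 2-fold are to be read against 6.78% of all genes above the limit and 15.6% of those under it.

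**Figure D4:**
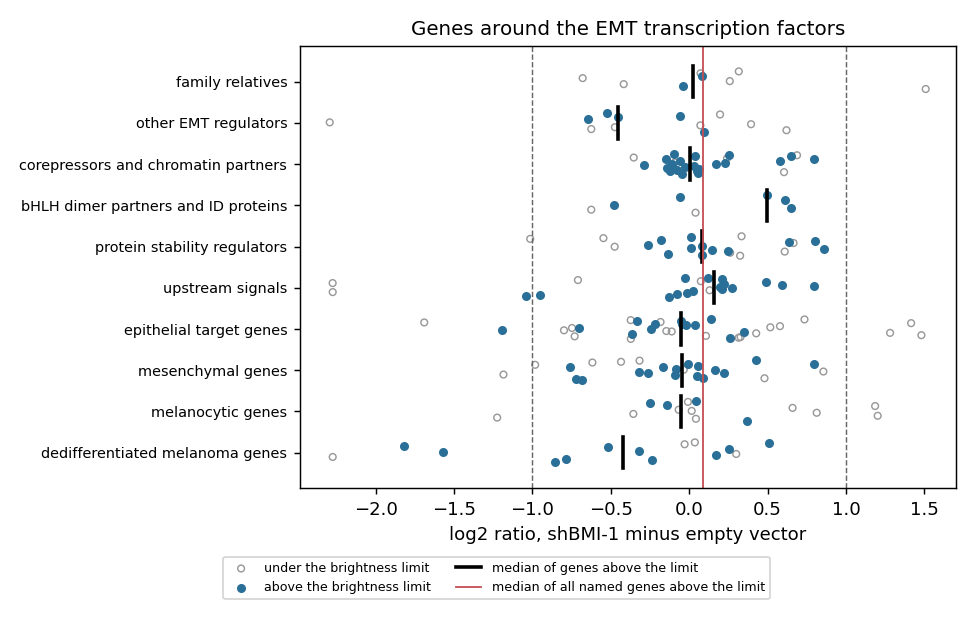
Log2 ratio (horizontal axis, shBMI-1 minus empty vector) of each gene of the lists (1 list per line), filled where the gene is above the brightness limit, with the list median in black and the median of all genes above the limit (0.09) in red. The dedifferentiated melanoma (median -0.42) and other EMT regulator (-0.45) medians lie to the left and that of dimer partners and ID genes (0.49) to the right, but with no brightness limit they were -0.28, -0.26 and 0.04.

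Markers of other cell types were summed over each list as intensities. Fibroblast markers, of which 0 of 7 were above the limit, summed to 264 for empty vector and 213 for shBMI-1. Most of that difference was PDGFRA, at 87.4 and 42.2 (-1.05). DCN (-0.38), LUM (-0.60), FAP (-0.29) and MFAP5 (-0.20) were also below 0, and THY1 (0.39) and COL14A1 (0.46) above. Endothelial markers, with 0 of 6 above the limit, summed to 145 and 108. CDH5 (-1.39), PECAM1 (-0.94), VWF (-0.59) and KDR (-0.10) were below 0, and TEK (0.56) and ERG (0.30) above. Keratinocyte markers summed to 1594 and 2267, with 3 of 6 above the limit: SFN (0.70), KRT14 (0.42) and KRT5 (0.39), a median of 0.42. The rest were dim and did not point one way, with DSG3 above 0 (1.62) and KRT1 (-0.15) and KRT10 (-0.46) below. Leukocyte markers summed to 2027 and 2800, most of it CD68 (1607 and 2562, ratio 0.67), a lysosomal gene that other cells also express. The other leukocyte genes above the limit, 3 of 6 in all, were LAPTM5 (-2.98) and TYROBP (-0.83), the list median was -0.83 (0.12 with no brightness limit), and PTPRC was at 12.9 and 12.3. No marker was at 0, as the smallest values of the arrays were 5.58 and 6.43, and their part in the ratios of the factors was not tested.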

How the data were processed

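A pair of samples, 1 array each, were compared, with groups taken from their titles. Per the labels' protocols, total RNA was copied to double-stranded cDNA from oligo-dT primers, labelled with Cy3 and hybridised to NimbleGen arrays. The authors deposited 1 linear intensity per row. How probes were summarised, corrected for background and normalized is not given in the sources used here.

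Rows were named by the platform's annotation (18188 rows, 26845 unnamed here, symbols checked against RefSeq of GRCh38.p14). Among unnamed rows, 678 had a RefSeq accession, none of a member. Log2 was taken with no pseudocount, and rows of one gene were averaged. The limits were 2-fold and the array median (50th percentile) on at least 1 array. No genome build is named, so no positions are given. The arithmetic of the steps was checked on simulated data with planted ratios. The simulated noise was smaller than the row SD of any brightness band, so this check does not show what could be detected here.

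The members, lists and tests were chosen with earlier results of these data known. Named were all members, the 4 largest ratios above the limit with rows on one side of 0 in each list, all genes past 2-fold, and defining markers. Others (such as KDM1A, CTBP1, HDAC1, GSK3B, TCF3, TCF4, ID4 and PTPRC) were named as known partners or markers after their values were seen. Python 3.11.15, numpy 2.4.6, pandas 2.3.3, statsmodels 0.14.6 and matplotlib 3.10.9 were used.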

Additional observations from a re-analysis of the deposited data

How the results depend on the processing

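Alternatives were centring each array, quantile normalization, loess normalization over 3 iterations with a span of 0.3, the brightest row, a pseudocount of 50, rows added by RefSeq accession or older symbol, other brightness limits, and thresholds of 1.5-fold and 3-fold. No factor reached 2-fold under any of them, nor 1.5-fold as deposited. Their ratios ran from 0.02 to 0.13 for SNAI1, 0.38 to 0.56 for SNAI2, -0.03 to 0.06 for TWIST1, 0.02 to 0.07 for ZEB1, 0.20 to 0.47 for ZEB2 and -0.40 to -0.29 for PRRX1. The sign of TWIST1 changed after quantile and loess normalization, and BMI1 ran from -1.41 to -0.65. List medians near 0 changed sign for family relatives, corepressors and melanocytic genes in 2, 3 and 3 alternatives. Without a brightness limit the median of dimer partners and ID genes was 0.04 in place of 0.49, that of other EMT regulators -0.26 in place of -0.45 and that of dedifferentiated genes -0.28 in place of -0.42. The leukocyte median of -0.83 was -0.078 when the brightest row was used or both arrays were averaged for the limit, 0.12 without any limit and 0.67 under the limit at the 75th percentile. The leukocyte median rests on few genes, and which of them passed the limit changed with the setting. At the 75th percentile only CD68 was left, and with the limit on the average of both arrays LAPTM5 dropped out. No family relative was left at the 75th percentile. Signal over background was not measured, which limits ZEB1, ZEB2, SNAI2 and BMI1 most.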
